A study of Mus musculus with 2 samples.

Results

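The microRNA genes described here are 84 genes whose probe sets gave a signal above background in cultured mouse neural precursor cells. They were chosen by their level over both arrays, in 2 steps. Probe sets named for a single microRNA gene were taken first, which gave 300 genes. Genes were then kept when the mean of log2(intensity + 16) over both arrays reached the 95th percentile of 1035 probe sets for olfactory receptors, a family hardly used in these cells. That floor lay at an intensity of 85.9. It left 84 of 300 microRNA genes (28.0%), while 11325 of all 19938 genes on the array (56.8%) passed it. The levels of the members are therefore a description. The difference between the arrays was not used by the rule.

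The cells came from the forebrain of Jcl:ICR mouse embryos at stage E11.5 and grew with FGF2 and EGF, the growth factors that keep precursors dividing. One culture received a control retrovirus and the other a retrovirus carrying HMGN1, a nucleosome-binding chromatin protein. Both were replated 3 days after infection and then kept for 1 day without either growth factor. Total RNA from each went onto 1 whole-transcript array, 2 arrays in all. The comparison asks which microRNA genes differ with the HMGN1 virus after 1 day without growth factors. The promoter in the virus, the share of cells infected and the number of embryos were not given in the sources used here.

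MicroRNAs are short RNAs that pair with messenger RNAs and lower their translation or stability. A long primary transcript is cut in the nucleus by Drosha and Dgcr8 into a hairpin, which Xpo5 exports and Dicer1 trims. One arm of the trimmed duplex is then held by an Argonaute protein. The seed, bases 2 to 8 of the mature arm, sets most of the pairing, so microRNAs with the same seed form families with overlapping targets. In the embryonic brain let-7, miR-9, miR-124 and miR-125 are known to favour exit from division and neuronal differentiation, and miR-219 and miR-338 favour the maturation of oligodendrocytes.

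The results turn on a few families, whose mature arms are shown first so that the shared seeds can be seen. RefSeq (GRCm38.p6) held a hairpin for 63 and a mature arm for 73 of the 81 detected hairpin genes. The other 3 detected members are the long host transcripts Mir99ahg, Mir100hg and Mir670hg. Capitals mark the seed. The miR-181 arms come from 6 genes in 3 neighbouring pairs, all 6 of which were detected.
mmu-miR-181a-5p: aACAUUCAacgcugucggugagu
mmu-miR-181b-5p: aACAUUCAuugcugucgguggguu
mmu-miR-181c-5p: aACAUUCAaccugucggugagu
mmu-miR-181d-5p: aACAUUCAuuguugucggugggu
The let-7 arms below belong to the 4 let-7 genes that were detected.
mmu-let-7c-5p: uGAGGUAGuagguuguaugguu
mmu-let-7d-5p: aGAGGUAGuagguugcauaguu
mmu-let-7e-5p: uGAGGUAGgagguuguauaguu
mmu-let-7i-5p: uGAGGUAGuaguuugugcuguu
miR-92b, the lowest member, shares its seed with miR-25.
mmu-miR-92b-3p: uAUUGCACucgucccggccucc
mmu-miR-25-3p: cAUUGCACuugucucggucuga
miR-99b and miR-125a lie beside let-7e, and miR-99a lies beside let-7c-1.
mmu-miR-99a-5p: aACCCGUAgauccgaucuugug
mmu-miR-99b-5p: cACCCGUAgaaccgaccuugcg
mmu-miR-125a-5p: uCCCUGAGacccuuuaaccuguga

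Hmgn1 itself, the check of the labels, read 230 on the control virus array and 348 on the HMGN1 virus array, a log2 difference of 0.57. All differences here are HMGN1 virus minus control virus on the log2(intensity + 16) scale, which understates differences of dim genes. Below, a pair of readings gives the control virus array first, and the value in brackets after it is the log2 difference. With 1 array per virus there are no replicates, so no test was possible and no p-value is given. The differences compare these 2 RNA samples. As a measure of scatter, the log2 differences of different probe sets for 1 gene had an SD of 0.0891 over 683 genes. That SD leaves out variation between cultures, RNA preparations or arrays. The differences of all detected genes spread more at low signal. Their SD was 0.125 from the floor to an intensity of 150, 0.108 from 150 to 400 and 0.0982 at 400 or more. Which form of a microRNA a probe set reads, the primary transcript, the hairpin or the mature arm, was not given in the sources used here. In cultures of mixed cells, fewer cells of a type and less RNA per cell cannot be told apart.

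The label of the cells was checked against listed markers. Of the neural precursor markers, 9 of 9 measured were above the floor, with a median log2 difference of -0.012 (0.020 after quantile normalization). As deposited, 4 were higher and 5 lower, the lowest being Sox1 at 601 and 467 (-0.35). All 8 neuron markers, 7 of 8 astrocyte markers and 9 of 9 oligodendrocyte-lineage markers were above the floor too. Only 1 of 6 microglia markers (Cx3cr1), 1 of 6 endothelial markers (Egfl7) and none of 2 erythroid markers passed, and 4 of 6 mesenchyme markers did. MicroRNAs known from other cells were mostly under the floor. So were 216 of all 300 named microRNA genes, and 14 of 22 linked to neuronal differentiation, so these counts say little about the cells present. None of the 5 measured genes of the pluripotency cluster of miR-302 and miR-367 was above the floor. Of 19 measured genes known from blood, muscle, endothelium, liver or epithelium, 2 were, Mir143 and Mir375.

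The floor cut through genes of similar signal. Just inside it stood Mir218-1, which read 95.2 and 89.1, and Mir350, which read 81.6 and 101. Just outside it stood Mir301b, at 86.8 and 83.6, and Mir504, at 86.5 and 83.1. Several microRNAs best known from neurons were under it. Mir124a-2 read 61.6 and 62.9, Mir124a-3 read 22.8 and 27.8, and Mir137 read 21.7 and 18.6. The 216 microRNA genes under the floor had a median log2 difference of -0.0059, with 114 lower, 92 higher and 10 equal. Among them were larger single differences at low signal, such as Mir677 at 59.8 and 90.7 and Mir205 at 58.0 and 36.8, both picked after their values were seen.

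MicroRNA genes were more often lower than higher with the HMGN1 virus, by small amounts. Of the 84 members, 53 were lower (63.1%), 29 were higher (34.5%) and 2, Mir129-1 and Mir551b, had the same value on both arrays. Among all 11325 detected genes 38.4% were lower and 60.1% were higher. The members' median log2 difference was -0.043 with quartiles of -0.13 and 0.030, against 0.027 for all detected genes and 0.029 for 10880 detected protein-coding genes. The members also spread more, with an SD of 0.138 against 0.111. Centring the arrays on the median of all detected genes, a shift of 0.027 after which as many genes are lower as higher by construction, brought the lower members to 73.8%. Removing the trend with intensity brought them to 67.9%, against 49.8% of all detected genes. The olfactory receptor genes, which stand for background, had a median of -0.050 and an SD of 0.156 over 1027 genes. Of them 61.5% were lower and 34.4% higher, close to the shares of the members. The part of background signal in the members' shares was not tested.

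**Figure D1:**
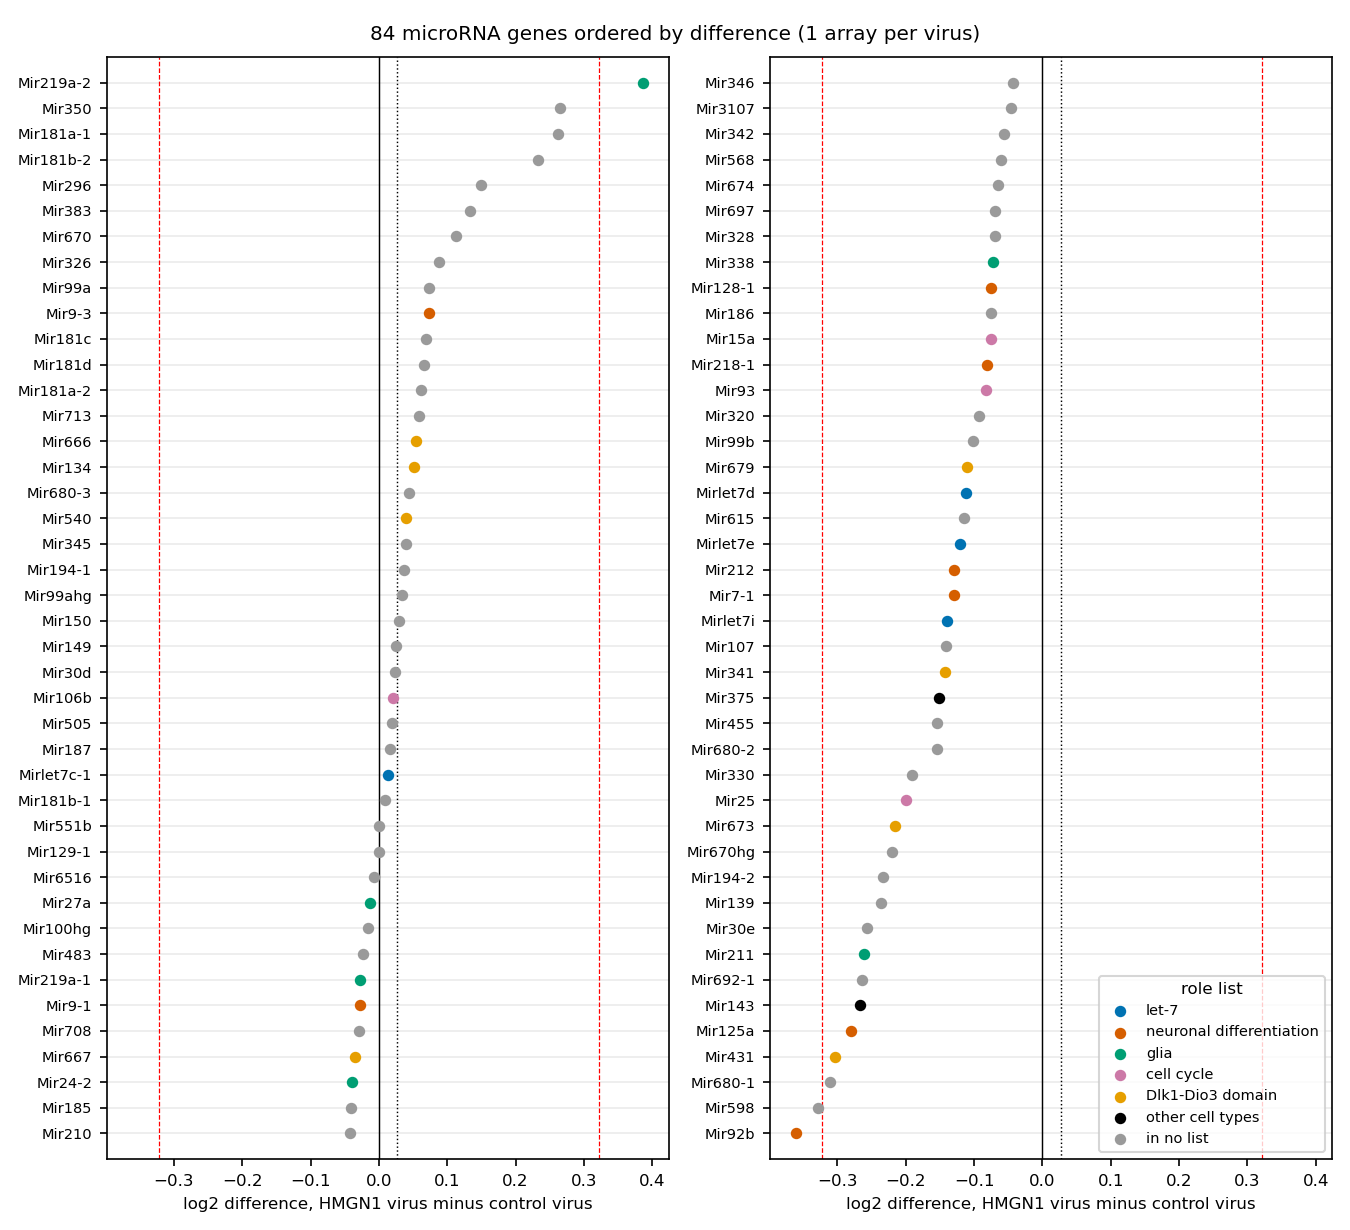
Log2 difference (HMGN1 virus minus control virus) of each of the 84 detected microRNA genes, sorted, in 2 panels, 1 point per gene from 1 array per virus, coloured by role list. Dotted lines mark the median of all detected genes and dashed lines a log2 difference of 0.322 either way. Of the points, 29 lie above 0, 53 below it and 2 on it, and the range runs from -0.36 for Mir92b to 0.39 for Mir219a-2.

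No member differed by 1.5-fold, a size that 0% of all detected genes reached upward and 0.0706% downward. At a smaller size, a log2 difference of 0.322, 1 member was higher (Mir219a-2) and 2 were lower (Mir92b and Mir598). The same size was reached by 0.494% of all detected genes upward and by 0.521% downward. The share of lower genes was above that of all detected genes at each level of signal. Between the floor and an intensity of 150, 27 of 47 members were lower (57.4%) against 48.2% of 3129 genes. Between 150 and 400 it was 18 of 24 (75%) against 36.0%, and at 400 or more 8 of 13 (61.5%) against 32.8%. Small nucleolar RNA genes, another class of short noncoding RNA, lay further down, with 38 of 41 lower and a median of -0.32. Of those 41 genes, 21 (51.2%) were lower by that size. The differences between classes were not tested.

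**Figure D2:**
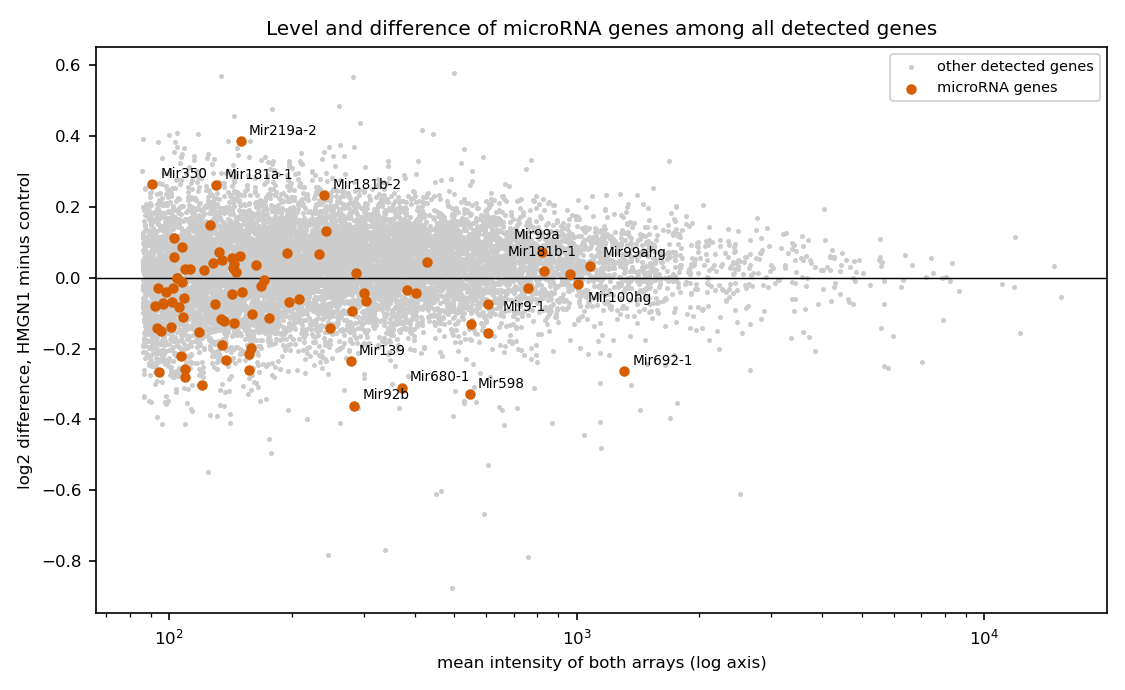
Log2 difference against the mean intensity of both arrays (log axis) for the 84 microRNA genes (orange) and all other detected genes (grey). Most microRNA genes sit at low signal, 47 of them under an intensity of 150, and lower values appear along the whole axis, down to Mir692-1 at 1433 and 1191.

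The highest difference was that of Mir219a-2, a source of the oligodendrocyte microRNA miR-219. It read 129 on the control array and 173 on the HMGN1 array, a log2 difference of 0.39. Next came Mir350, at 81.6 and 101 (0.27), whose control value was under the floor. Mir181a-1 read 118 and 144 (0.26), and Mir181b-2 read 220 and 262 (0.23). The rest of the 8 highest were smaller: Mir296 at 119 and 134 (0.15), Mir383 at 231 and 255 (0.13), Mir670 at 98.0 and 107 (0.11), and Mir326 at 104 and 111 (0.088). All of the 8 but Mir326 exceeded the SD between probe sets of 1 gene, 0.0891. They were picked as the extremes of 84 values with an SD of 0.138, so passing that size gives no support. Mir670 was within the SD over all detected genes under an intensity of 150, which was 0.125.

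The lowest difference was that of Mir92b, known for restraining intermediate progenitors in the developing cortex. It read 324 on the control array and 249 on the HMGN1 array, a log2 difference of -0.36. Mir598 read 613 and 485 (-0.33), and Mir680-1 read 416 and 332 (-0.31). Mir431, of the imprinted Dlk1-Dio3 region, read 135 and 107 (-0.30). The other members of the 8 lowest were Mir125a at 122 and 97.8 (-0.28), Mir143 at 105 and 84.7 (-0.27), Mir692-1 at 1433 and 1191 (-0.26) and Mir211 at 173 and 142 (-0.26). Mir143, a microRNA of smooth muscle, ended under the floor on the HMGN1 virus array. All 8 exceeded the SD between probe sets of 1 gene in size, but they too were picked as the extremes of the 84 values.

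Among the 8 members with the highest signal, Mir692-1 was the only one to differ by more than 0.1. Intensities of different probe sets do not rank RNA amounts. Mir99ahg, the host transcript of miR-99a and let-7c-1, read 1068 and 1093 (0.034), turning to -0.0017 with the intensity trend removed, and its other 3 probe sets differed by 0.045 to 0.14. Mir100hg, host of miR-100, let-7a-2 and miR-125b-1, read 1011 and 999 (-0.016). Mir181b-1 was at 960 and 967 (0.0096), Mir505 at 826 and 838 (0.020, turning lower with centring and trend removal) and Mir99a at 802 and 845 (0.074). Mir9-1, a source of the precursor microRNA miR-9, was at 766 and 751 (-0.028), and Mir15a, a microRNA that restrains the cell cycle, at 623 and 590 (-0.075).

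The detected microRNAs linked to neuronal differentiation were mostly lower, but those under the floor were not. Of 22 measured genes 8 were detected, 7 of them lower and 1 higher under each of 4 scalings (as deposited, centred, trend removed and quantile normalized), with a median log2 difference of -0.10. Of all 84 members 63.1% were lower as deposited, 73.8% with centring and 67.9% with the trend removed. Whether this list parted from the other members was not tested. Over all 22, the genes under the floor included, 12 genes were lower and 10 higher, and the median was -0.037. Beside Mir92b and Mir125a, Mir7-1 read 576 and 525 (-0.13) and Mir212, induced by neuronal activity, read 152 and 137 (-0.13). Mir128-1, a microRNA of neurons, was at 99.6 and 93.8 (-0.075) and Mir218-1, of motor neurons, at 95.2 and 89.1 (-0.080). Mir9-1 was lower by a small amount and Mir9-3 was the higher one, at 128 and 136 (0.073). The 8 neuron marker genes had a median of 0.080, with 5 higher and 3 lower, while 60.1% of all detected genes were higher. Their summed intensity was 8618 on the control array and 8951 on the HMGN1 array. The part of neuron number in these values was not tested.

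Of the let-7 family, which promotes differentiation, 10 genes were measured and 4 detected, 3 lower and 1 higher, with a median of -0.12. For all 84 members the share lower was 63.1% and the median -0.043. Mirlet7d read 183 and 168 (-0.11), Mirlet7e 143 and 130 (-0.12), and Mirlet7i 107 and 95.2 (-0.14). Mirlet7c-1 read 286 and 288 (0.013), a value that turned to -0.014 with centring, -0.025 with the intensity trend removed and -0.017 after quantile normalization. The differences of Mirlet7d, Mirlet7e and Mirlet7i were each larger than the SD between probe sets, 0.0891. They were near the SD over all detected genes of similar signal. That was 0.125 under an intensity of 150, where Mirlet7e and Mirlet7i lay, and 0.108 from 150 to 400, where Mirlet7d lay. Over all 10 measured let-7 genes, the 6 under the floor included, the median was 0.026.

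MicroRNAs linked to glia had 6 detected of 12 measured, 5 lower and 1 higher, while 63.1% of all 84 members were lower. Mir219a-2 was the higher one. Mir338, like miR-219 a microRNA of maturing oligodendrocytes, read 99.5 and 93.9 (-0.072). Mir24-2 was at 99.7 and 96.6 (-0.040) and its neighbour Mir27a at 108 and 107 (-0.012, turning to 0.0052 after quantile normalization), while Mir211 was among the 8 lowest. Marker genes of glia were set beside these values. Of 9 detected oligodendrocyte-lineage markers 6 were higher and 3 lower, with a median of 0.094, while 60.1% of all detected genes were higher. The highest was Enpp6, an enzyme of newly formed oligodendrocytes, at 121 and 172 (0.46). The lower ones were Olig2, at 1427 and 1272 (-0.16), Cspg4 (-0.059) and Olig1 (-0.016). The summed intensity of all 9 was 6217 on the control array and 6434 on the HMGN1 array. Of 7 detected astrocyte markers 6 were higher, with a median of 0.16 and a summed intensity over all 8 of 4885 and 5371. Gfap, the astrocyte filament protein, read 406 and 615 (0.58). The part of these cell types in the value of Mir219a-2 was not tested.

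Proliferation-linked microRNAs of the miR-17, miR-15 and miR-34 families were mostly under the floor, with 4 of 22 detected, 3 lower and 1 higher, and 10 lower, 10 higher and 2 equal over all 22. Mir25 read 171 and 147 (-0.20), Mir93 read 109 and 102 (-0.083), and Mir106b read 121 and 123 (0.021, turning to -0.0064 with centring). These 3 lie next to each other in an intron of Mcm7, a DNA helicase subunit. Of the 40 measured genes of the Dlk1-Dio3 region, 8 were detected, 3 higher and 5 lower, with a median of -0.072. Beside both lists, 63.1% of all 84 members were lower, with a median of -0.043. Over all 40 genes of the region the median was -0.011, with 17 higher, 21 lower and 2 equal. Mir431 and Mir673 (171 and 145, -0.22) were its lowest, and Mir666 (140 and 146, 0.055) and Mir134 (132 and 137, 0.051) its highest. Mir375, known from pancreatic islets, read 102 and 90.0 (-0.15). The 37 detected members that are in no role group and had no readings given so far held 11 higher, 24 lower and 2 equal values. They lay between -0.26 and 0.069.

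All 6 miR-181 genes were higher with the HMGN1 virus on the deposited scale, but Mir181b-1 only just, and it turned to -0.018 with centring, -0.027 with the intensity trend removed and -0.0058 after quantile normalization. On the deposited scale 60.1% of all detected genes and 34.5% of all 84 members were higher. Of the 3 seed families with 3 or more detected members, miR-181 was the one with no lower member. miR-181 is best known for setting the sensitivity of developing T cells and is abundant in brain. Beside Mir181a-1, Mir181b-1 and Mir181b-2, Mir181a-2 read 145 and 152 (0.062), Mir181c 189 and 199 (0.069), and Mir181d 228 and 239 (0.067). The family ran from 0.0096 to 0.26 with a median of 0.068, and the other 5 stayed higher under all 3 scalings. The differences did not follow the mature arm. Mir181a-1 and Mir181a-2 encode the same 5′ arm and differed by 0.26 and 0.062, and Mir181b-1 and Mir181b-2 by 0.0096 and 0.23. Only Mir181a-1 and Mir181b-2, which lie in different pairs, exceeded the SD between probe sets.

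**Figure D3:**
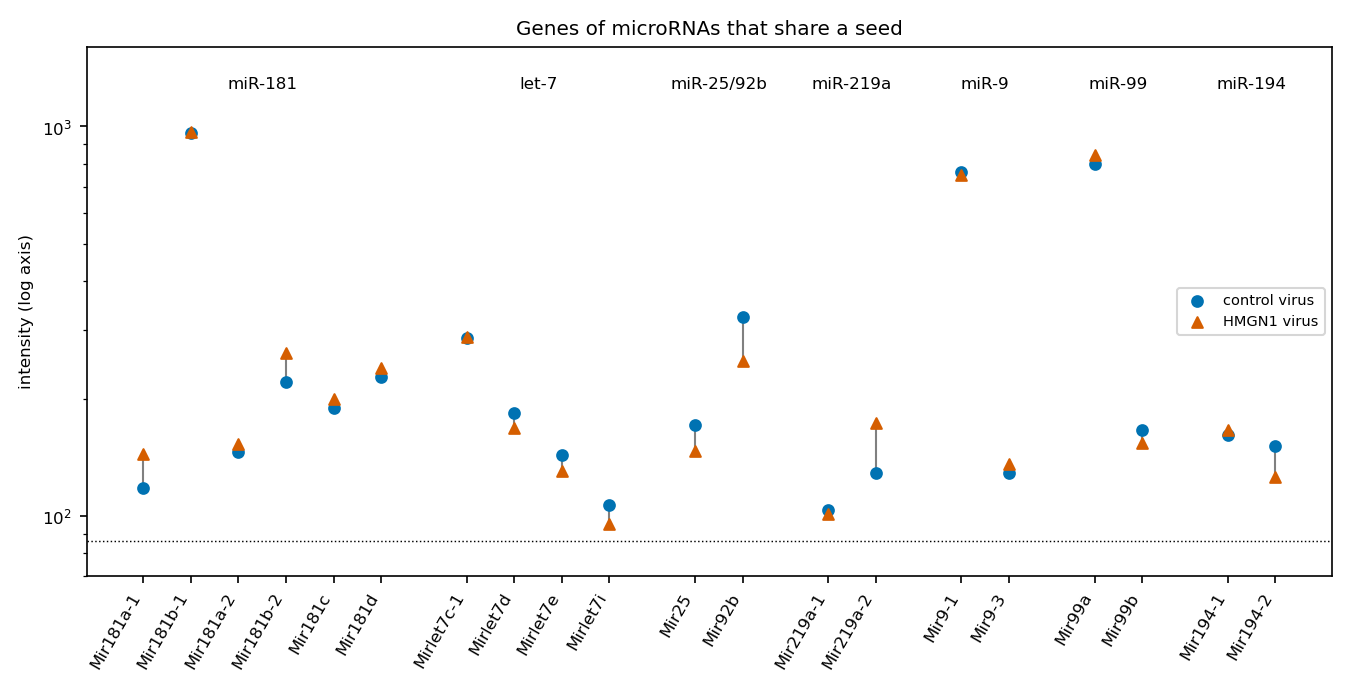
Intensity on the control virus array and on the HMGN1 virus array for detected members of 7 seed families (log axis), 1 point per array and gene, with a dotted line at the floor. The 6 miR-181 genes lie higher with the HMGN1 virus (Mir181b-1 turns lower under the 3 other scalings). In contrast, 3 of the 4 let-7 genes and both genes of the miR-25 and miR-92b seed lie lower. Of all detected genes 60.1% were higher, and of all 84 members 63.1% were lower.

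Among detected genes that encode the same mature arm, those of miR-219a lay furthest apart. Mir219a-1 read 103 and 101 (-0.028) and Mir219a-2 read 129 and 173 (0.39). The hairpins agree in 72 of 114 aligned columns (63.2%), and both hold the same 5′ arm. Capitals mark the mature arms that RefSeq lists. Mir219a-1 lies at chr17:34024983-34025092 on the minus strand and Mir219a-2 at chr2:29845631-29845727 on the minus strand of GRCm38.p6.
Mir219a-1 hairpin: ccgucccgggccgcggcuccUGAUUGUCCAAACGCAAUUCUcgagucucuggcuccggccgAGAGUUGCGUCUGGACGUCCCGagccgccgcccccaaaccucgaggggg
Mir219a-2 hairpin: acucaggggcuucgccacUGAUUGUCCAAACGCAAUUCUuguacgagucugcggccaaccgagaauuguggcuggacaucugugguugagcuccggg
Other copies parted as well. Mir194-1 read 161 and 166 (0.037) while Mir194-2 read 151 and 126 (-0.23), with hairpins 61.5% identical. Mir680-1 and Mir680-2, whose hairpins are 82.8% identical, were both lower (-0.31 and -0.15), and Mir680-3 was not (0.044). Probe sets for such copies could share signal, so their single values are uncertain.

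The genome holds 3 known trios, each of a miR-99 or miR-100 gene, a let-7 gene and a miR-125 gene. They were taken as known sets, not found by the rule of gaps up to 10 kb. That rule joined Mir99a and Mirlet7c-1 without Mir125b-2. The trio of Mir99b, Mirlet7e and Mir125a was lower throughout. Mir99b read 166 and 154 (-0.10), beside Mirlet7e at -0.12 and Mir125a at -0.28. Of the second trio Mir99a was higher (0.074) and Mirlet7c-1 near 0, and Mir125b-2, under the floor, read 15.4 and 19.3 (0.17). The third trio was wholly under the floor and higher throughout. In it Mir100 read 22.8 and 29.6 (0.23), Mirlet7a-2 33.2 and 42.4 (0.25), and Mir125b-1 69.8 and 86.9 (0.26). The host transcript of that trio, Mir100hg, lay above the floor and differed by -0.016.

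Many microRNAs lie inside a longer gene on the same strand and are cut from its transcript, so microRNA and host can be set side by side. A strand was known for 73 detected hairpin genes, and 32 had a host, 24 of them a protein-coding one. With a protein-coding host, both were detected in 22 pairs with 18 hosts. In these the microRNA gene was lower and the host higher in 14 pairs, both were lower in 6, both higher in 2, and in 0 was the microRNA gene higher and the host lower, though 1 pair was so with the trend removed and 1 after quantile normalization. Centring turned these counts to 10, 11, 1 and 0. The microRNA gene's difference was below that of its host in 17 of 22 pairs under each of the 4 scalings. Of the 18 hosts 12 were higher, beside 61.1% of all detected protein-coding genes, and 63.1% of all 84 members were lower. Whether microRNA genes and hosts parted beyond these shares was not tested. The microRNA genes had a median of -0.082 and the hosts one of 0.030, near the median of all genes, 0.027. Across the 22 pairs Pearson's r was -0.069 and Spearman's rho -0.20, a description in which the points share both arrays and some share a host. Pairs that differed most were picked after their values were seen. Mir139 read 304 and 256 (-0.24) while its host Pde2a, a phosphodiesterase, read 114 and 136 (0.23). Mir330 read 145 and 125 (-0.19) while Eml2, a microtubule-binding protein gene, read 95.7 and 119 (0.28).

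**Figure D4:**
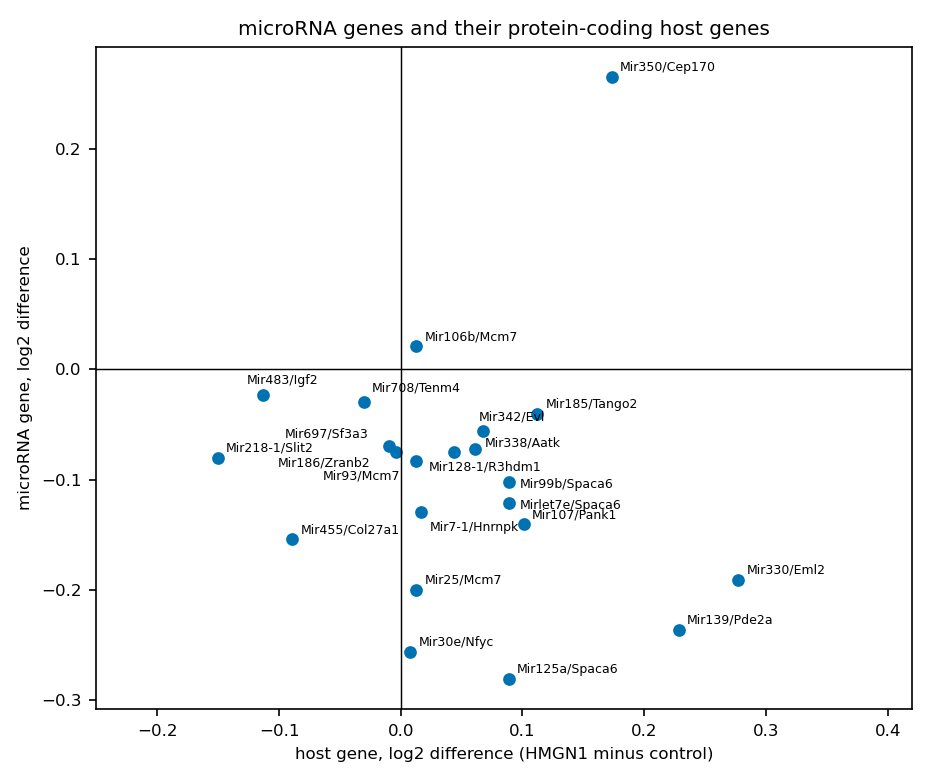
Log2 difference of each microRNA gene against that of its protein-coding host gene, for the 22 pairs in which both were detected. In 14 pairs the microRNA gene lies below 0 and the host above it. Only Mir350 with Cep170 and Mir106b with Mcm7 lie above 0 on both axes (with centring 10 pairs and 1 pair). Of all 84 members 63.1% were lower, and of all detected protein-coding genes 61.1% were higher.

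The hosts of members named above follow. Spaca6, host of Mir99b, Mirlet7e and Mir125a and known from fertilization, read 111 and 119 (0.089) while all 3 microRNA genes were lower. Hnrnpk, an RNA-binding protein gene and host of Mir7-1, read 3424 and 3464 (0.017), and R3hdm1, host of Mir128-1, read 894 and 922 (0.044). Mcm7 read 477 and 482 (0.013) around Mir25, Mir93 and Mir106b. Aatk, host of Mir338, differed by 0.061. Some hosts lay on the same side as their microRNA gene: Cep170, a centrosome protein gene around Mir350, read 937 and 1059 (0.17), and Slit2, an axon guidance gene around Mir218-1, read 186 and 166 (-0.15). The noncoding host Mir670hg, outside those 22 pairs, was lower while Mir670 was higher, at 117 and 97.9 (-0.22). Trpm1, host of Mir211, and Dleu2, host of Mir15a, were under the floor, as was Rian, host of Mir341.

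Detected hairpins were richer in G and C than undetected ones. The median GC content was 57.0% over 63 detected hairpins and 45.5% over 195 hairpins under the floor. Among the 63, GC content ran from 31.3% to 69.2%, and Spearman's rho with the log2 difference was -0.29. These are descriptions across genes of 1 pair of arrays, and the part of base composition in the detection and in the differences was not tested.

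The machinery that makes microRNAs was measured in full and differed little. All 15 biogenesis genes were above the floor, 10 higher and 5 lower (8 and 7 with the intensity trend removed), with a median of 0.053. Drosha, the nuclear cutter, read 399 and 420 (0.070), and its partner Dgcr8 read 340 and 360 (0.076). Xpo5 read 362 and 388 (0.095) and Dicer1 768 and 813 (0.080), while Tarbp2, a Dicer1 partner, read 204 and 201 (-0.017). All 17 effector genes were above the floor, 14 higher and 3 lower (11 and 6 with the trend removed), with a median of 0.056. The 4 Argonautes did not all differ one way: Ago1 read 1052 and 1063 (0.015), Ago2 659 and 626 (-0.072), Ago3 259 and 271 (0.058) and Ago4 211 and 225 (0.088). Ago2, the member that can cut its target, was the only lower one on the deposited scale. Ago1, whose difference was under the shift of 0.027, joined it with centring. Ago2 has 2 probe sets, of which only the brightest was used, and its difference was within the SD between probe sets, 0.0891. Among all detected genes 60.1% were higher, and no gene of either list reached a log2 difference of 0.322.

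The detected genes that control let-7 differed little, with a median of 0.031 that turned to -0.0076 with the intensity trend removed. Lin28a and Lin28b, which block let-7 maturation, were under the floor, at 81.1 and 72.3 and at 50.4 and 49.9, as was Mettl1. Tut4 and Tut7, which tail let-7 precursors, read 1138 and 1160 (0.027) and 353 and 362 (0.035). Dis3l2, which degrades tailed precursors, read 341 and 349 (0.031), Trim32 read 225 and 233 (0.047), and Trim71, a let-7 target, read 119 and 118 (-0.0030). All 5 differences were within the SD between probe sets, 0.0891.

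Textbook targets of microRNAs lay close to other genes. The list was not limited to targets of detected members, and it holds targets of miR-124 and miR-137, whose genes were under the floor. Of 22 measured 21 were detected, 16 higher and 5 lower (12 and 9 with centring), with a median of 0.042 against 0.027 for all detected genes. The highest were Zbtb18, a repressor in cortical neurogenesis, at 720 and 823 (0.19), and Ezh2, a histone methyltransferase targeted by miR-137, at 1588 and 1764 (0.15). The lowest were E2f1, a cell cycle factor targeted by miR-17 and miR-106b, at 262 and 234 (-0.15), and Sox9, a glial factor targeted by miR-124, at 1991 and 1948 (-0.031). None of the 21 reached a log2 difference of 0.322.

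**Figure D5:**
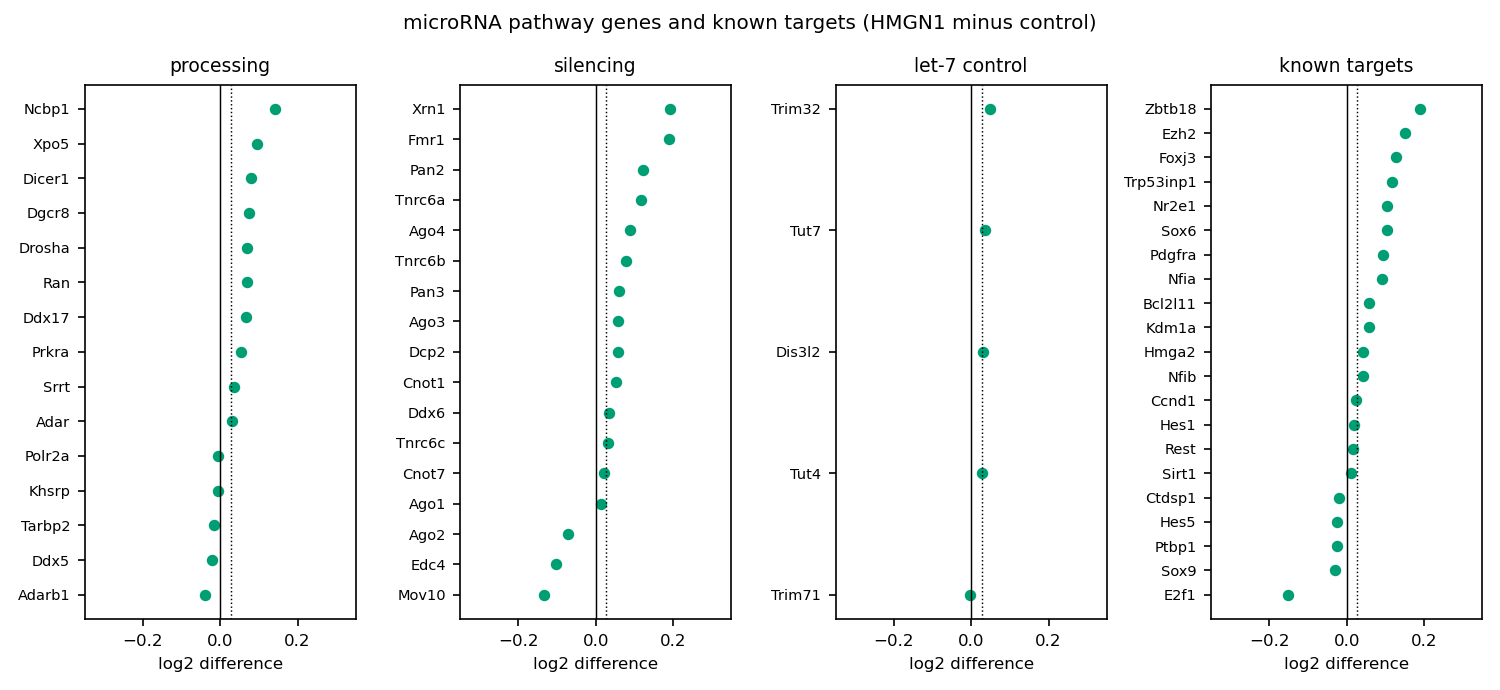
Log2 difference of each detected gene of the biogenesis, effector, let-7 control and target lists, 1 point per gene, with dotted lines at the median of all detected genes. Medians are 0.053, 0.056, 0.031 and 0.042, and every point lies between -0.15 and 0.19.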

How the data were processed

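Total RNA of 1 culture per virus was labelled by a whole-transcript kit, per the labels' protocols. The deposited table holds 1 intensity per probe set and array (28944 probe sets), with linear values. The authors' background correction, normalization and summary of probes were not given in the sources used here. No further normalization was applied. Symbols came from GEO's platform annotation: 21789 probe sets had 1 symbol, 1621 several and 5534 were unnamed here. A gene took its brightest probe set. The number of arrays limits the precision.

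Seeds, hairpins, hosts and neighbours (same strand, gaps up to 10 kb) came from RefSeq GRCm38.p6, and all 300 members matched its gene table. The deposited table names no build. Python 3.11.15, pandas 2.3.3, numpy 2.4.6, statsmodels 0.14.6 and biopython 1.88 were used, and the code was tested on simulated data.

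The members and lists were chosen with earlier results of these data known. Named by rule were the 8 highest, lowest and brightest members, those at the floor, detected members of the let-7, neuronal, glial and proliferation lists, the extremes of other lists, hosts and pathway genes. Others were chosen after their values were seen. Alternatives were other scalings, floors, offsets (1 and 64), fold sizes and probe set rules.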

Additional observations from a re-analysis of the deposited data

How the results depend on the processing

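The members' median log2 difference stayed below 0 under every alternative run, between -0.070 and -0.018. No member shifted by as much as 0.0891, although 12 had another sign than their main value under at least 1 setting. Those 12 include Mir129-1 and Mir551b, whose main value was 0. Counts moved more. The members lower by a log2 difference of 0.322 numbered 4 with centring or an offset of 1, 0 with an offset of 64 and 5 with no filter on dim probe sets. Those higher by it numbered 0 with an offset of 64 and 3 with no filter. Taking that size in place of 1.5-fold gave 1 higher and 2 lower. The members lower at any size numbered 34 once the floor was the 99th percentile of olfactory receptors and 35 once it was the median of named probe sets. With no filter all 300 entered, 167 lower and 121 higher. Without the filter the median of the let-7 list and of the let-7 seed changed sign, to 0.026 and 0.013. Leaving out the long host transcripts, chosen after seeing the data, left every count within 1.5 times its main value. No paired analysis was possible because each virus had 1 array, and for the same reason no replicate could be left out. Signal near background limits the 47 members under an intensity of 150.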

Other observations

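Probe sets named for several genes entered no count above. Of these, 61 name a microRNA, and 18 lay above the floor, 12 lower and 6 higher, with a median log2 difference of -0.032. The 4 probe sets shared by Mir692-2, Mir692-3 and Ftl1, the ferritin light chain, were all higher, the brightest at 4801 and 5072 (0.079), while the single-gene probe set of Mir692-1 was lower (-0.26). The 3 shared by Mir682 and the ribosomal protein gene Rpl37a were lower, by -0.00077 to -0.11. The lowest was the probe set of Mir1291 and the small nucleolar RNA Snora34, at 369 and 266 (-0.45). Mirlet7b, named with Lncppara, read 115 and 107 (-0.089), the direction of 3 of the 4 detected let-7 genes. The probe set of Mir92-1 and Mir17hg read 99.2 and 89.5 (-0.13).

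Some probe sets repeat 1 pair of values. All 13 naming Mir669a read 6.13 and 5.03, and all 9 naming Mir467a read 6.53 and 7.38, far under the floor.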
